A study of Rattus norvegicus with 11 samples.

Results

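Fos, Fosb, Junb and Jun are immediate early genes that encode subunits of the transcription factor AP-1, and their transcripts were followed in the medial prefrontal cortex (mPFC) of male rats and of female rats in proestrus and diestrus. The 4 genes were found by their Ensembl identifiers (ENSRNOG00000008015 for Fos, ENSRNOG00000046667 for Fosb, ENSRNOG00000042838 for Junb and ENSRNOG00000026293 for Jun) among 15607 genes, and all 4 were measured in every library. The samples were tissue punches of the mPFC from Sprague-Dawley rats aged 2 to 3 months: 4 males, 3 females in proestrus, the stage of high ovarian hormones, and 4 females in diestrus, a stage of low ovarian hormones. The labels name no drug, surgery or behavioural test. By the study's methods the sexes were kept in separate rooms and the females alone had daily vaginal smears, so that sex, room and smearing cannot be told apart. Proestrus females were killed in the early afternoon and diestrus females early on the first day of that stage, so that stage and hour of collection cannot be told apart either. The animals chosen for sequencing had regular cycles (females) and high RNA quality. Libraries are named here by group and by the replicate number of their label.

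An immediate early gene is transcribed within minutes of a stimulus, such as calcium entry into an active neuron, without the need for newly made protein. A Fos family protein cannot pair with itself and binds DNA as a dimer with a Jun family protein, whereas Jun proteins also pair with each other. The AP-1 dimer binds the sequence TGACTCA, and Fos transcript and protein are widely used to mark recently activated neurons.

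The sequence before the start of Junb is shown because Junb varied most between animals of 1 group among the 4 (SD of 0.46 on the log2 scale after removal of the group means), and because such promoters receive the signals that induce immediate early genes. Of the 4 genes, 2 were matched by symbol in RefSeq's promoter windows of the GRCr8 assembly, which are Junb and Fosb. The Fosb window starts inside the annotated gene and is not printed. The 250 bases before the Junb start lie at chr19:40080876-40081125 on the plus strand of GRCr8, an assembly later than the one the reads were aligned to. Capitals mark the core of the cAMP response element TGACG, the CCAAT box and the TATA element TATAAA:

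Junb promoter: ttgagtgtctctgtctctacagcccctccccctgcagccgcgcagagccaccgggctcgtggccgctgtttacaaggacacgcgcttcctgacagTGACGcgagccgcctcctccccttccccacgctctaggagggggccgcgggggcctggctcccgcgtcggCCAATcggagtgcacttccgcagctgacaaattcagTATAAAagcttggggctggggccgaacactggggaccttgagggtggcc

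The first base of the TGACG match lies 155 bases before the start, that of CCAAT 85 bases and that of TATAAA 49 bases. Each of the 3 motifs matched once when both strands were searched, and the matches do not overlap. Over 33469 promoter windows of the same length, TGACG was present in 18.2%, CCAAT in 34.0% and TATAAA in 12.9%. No match was found for the AP-1 site TGACTCA (4.05% of windows), the full cAMP response element TGACGTCA, which contains TGACG (1.59%), the Egr site GCGNGGGCG (4.29%), the CArG box bound by serum response factor (1.50%) or the palindromic estrogen response element (0.0239%). The matches describe letters in this window and were not tested for binding.

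Expression is given as DESeq2-normalized counts, that is, reads per gene divided by a size factor of each library. The libraries held 15.9 to 24.6 M reads on genes. Reads per library were 518 to 1804 for Fos, 484 to 1876 for Fosb, 1598 to 4594 for Junb and 938 to 1377 for Jun, for which counting error alone is 1.48% to 4.55%. Of 9 cortical neuron markers 5 could be matched (Cux1, Cux2, Gap43, Cplx1 and Cplx2). Their summed normalized count was 31574 to 43354 in the 11 libraries with none at 0. Most of it came from Gap43 and Cplx1, with means of 15443 and 12800 in males, against 1092 for Cux1 and 1510 for Cux2. No other tissue was measured, so that the sum does not tell the mPFC from other brain regions. The labels do not name the animals behind the replicates beyond their numbers.

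Fos, the founding member of its family, was examined first. Its normalized count in males was 1494, 1194, 1454 and 1234 in replicates 2, 3, 4 and 5. In proestrus it was 981, 492 and 911 in replicates 1, 3 and 5, and in diestrus it was 1318, 800, 902 and 608 in replicates 2, 3, 4 and 5. All 3 proestrus libraries lay below the lowest male library. Of the 4 diestrus libraries 3 did so, and diestrus replicate 2 lay within the male range. The group means were 1344 ± 152 in males (SD, n = 4), 907 ± 300 in diestrus (SD, n = 4) and 795 ± 264 in proestrus (SD, n = 3).

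Fosb encodes a Fos family protein and, through splicing, the long-lived truncated form known as ΔFosB. Reads counted per gene do not separate the 2 forms. The normalized count of Fosb was 1553, 1307, 1401 and 1290 in male replicates 2, 3, 4 and 5. It was 799, 460 and 726 in proestrus replicates 1, 3 and 5, and 1166, 669, 801 and 585 in diestrus replicates 2, 3, 4 and 5. Fosb was the single gene of the 4 for which all 7 female libraries lay below all 4 male libraries. The group means were 1388 ± 120 in males (SD, n = 4), 805 ± 256 in diestrus (SD, n = 4) and 662 ± 179 in proestrus (SD, n = 3).

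Junb encodes a Jun family partner that is a weaker activator than Jun at many sites. Its normalized count was 3803, 4032, 3335 and 3322 in male replicates 2, 3, 4 and 5. It was 2517, 1638 and 2079 in proestrus replicates 1, 3 and 5, and 3885, 2907, 2417 and 1249 in diestrus replicates 2, 3, 4 and 5. Proestrus did not overlap with males, whereas the diestrus libraries ran from the lowest value of all 11 libraries to a value within the male range. The group means were 3623 ± 353 in males (SD, n = 4), 2615 ± 1096 in diestrus (SD, n = 4) and 2078 ± 439 in proestrus (SD, n = 3).

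Jun encodes the Jun family member with which Fos forms the classical AP-1 dimer. Its normalized count was 1140, 1146, 1128 and 1060 in male replicates 2, 3, 4 and 5. It was 1237, 923 and 1028 in proestrus replicates 1, 3 and 5, and 1033, 1022, 1127 and 968 in diestrus replicates 2, 3, 4 and 5. The 3 groups overlapped, and both the highest and the lowest library were from proestrus. The group means were 1118 ± 40.0 for males (SD, n = 4), 1063 ± 160 for proestrus (SD, n = 3) and 1038 ± 65.7 for diestrus (SD, n = 4).

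**Figure D1:**
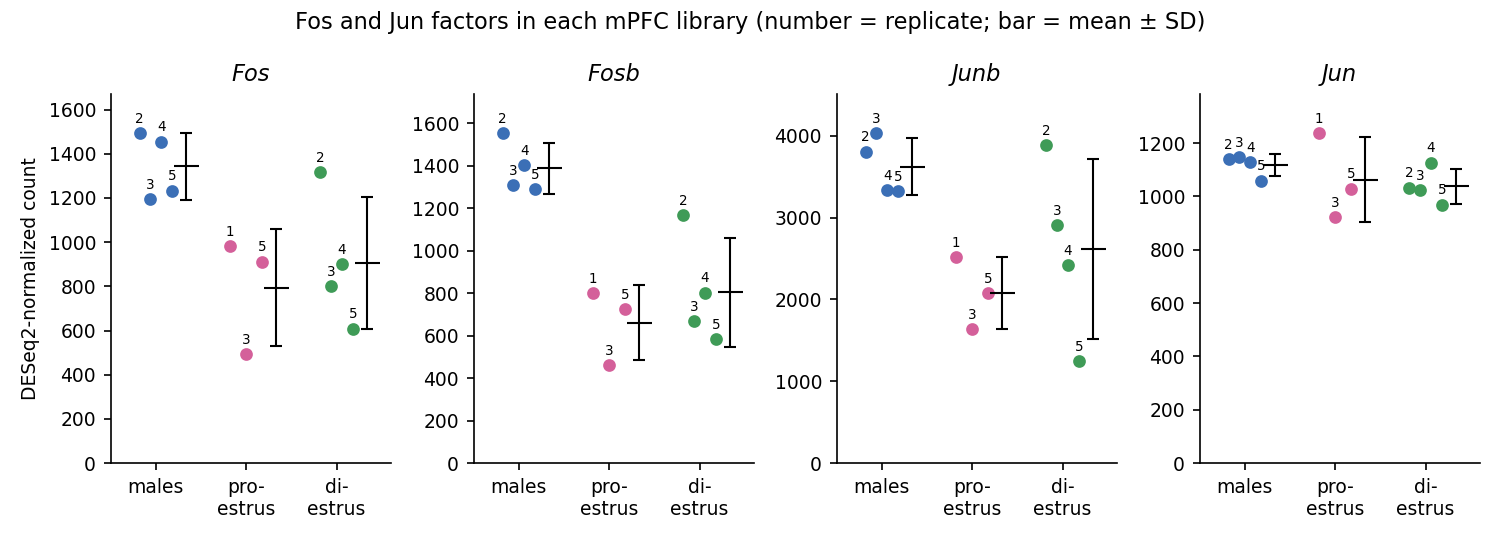
DESeq2-normalized counts (linear axes from 0) of Fos, Fosb, Junb and Jun in 4 male, 3 proestrus and 4 diestrus libraries; each point is 1 library with its replicate number, and the bars give the mean ± SD of the group. Fosb is at most 1166 in females (diestrus replicate 2) and at least 1290 in males, whereas Jun lies between 923 and 1237 throughout.

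The first comparison asked whether the genes differed between females and males without regard to the cycle. In limma on log2(normalized count + 1) over all genes, Fosb had a log2 fold change of -0.95 ± 0.19 (SE) in females, a fold of 0.519 (95% interval 0.393 to 0.684), with an adjusted p of 0.0916. It took place 30 among the 15607 genes ordered by p. Fos had a log2 fold change of -0.70 ± 0.21 (SE, adjusted p = 0.544 in limma) and Junb of -0.68 ± 0.23 (SE, adjusted p = 0.684 in limma). The log2 fold change of Jun was -0.10, with a 95% interval of -0.27 to 0.07.

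At a false discovery rate of 5%, limma called 0 of the 4 genes between females and males, where it called 0.135% of all genes. At an unadjusted p under 0.05, 3 of the 4 (Fos, Fosb and Junb) were lower in females, against 2.77% of all genes. Fosb was 1 of the genes without overlap between the sexes, which were 0.737% of all genes in the direction of lower values in females. On whole reads recovered from the normalized values, edgeR's quasi-likelihood test also called 0 of the 4 (adjusted p = 0.0930 for Fosb), whereas DESeq2 called Fosb (adjusted p = 0.00150). The call therefore differed between tools at a like effect size. Without diestrus replicate 2, limma called Fosb with an adjusted p of 0.00866, and over the 21 alternatives its adjusted p ran from 0.00150 to 0.324. Fewer cells that express a gene and less RNA per cell cannot be told apart in these tissue samples.

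Each stage of the cycle was then compared with males. These 2 comparisons share the 4 male libraries. For proestrus vs males, the log2 fold change was -0.81 ± 0.25 (SE) for Fos, -1.10 ± 0.21 (SE) for Fosb and -0.82 ± 0.28 (SE) for Junb, with limma's adjusted p-values of 0.325, 0.129 and 0.369. For Jun it was -0.08, with a 95% interval of -0.29 to 0.12. Fos and Junb in proestrus were thus at a fold of 0.569 and 0.567 of males, and Fosb at 0.466. Limma called 0 of the 4 genes against 0.0833% of all genes. At an unadjusted p under 0.05, 3 of the 4 were lower in proestrus, against 4.22% of all genes. The same 3 did not overlap with males, against 5.61% of all genes in that direction. edgeR called 0 of the 4 and DESeq2 called Fosb (adjusted p = 0.000851). With the proestrus and male libraries alone, limma called Fosb and Junb, with adjusted p-values of 0.0347 and 0.0436. Without diestrus replicate 2, which enters this comparison only through the shared estimate of the spread, limma called Fosb (adjusted p = 0.0332). Over the 21 alternatives the adjusted p of Fosb ran from 0.000851 to 0.400. Without proestrus replicate 3, the lowest library for Fos and Fosb, the log2 fold change was -0.50 for Fos, -0.86 for Fosb and -0.66 for Junb, and none of these was called.

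For diestrus vs males, the log2 fold change was -0.62 ± 0.23 (SE) for Fos, -0.83 ± 0.20 (SE) for Fosb and -0.58 ± 0.25 (SE) for Junb, with limma's adjusted p-values of 0.460, 0.192 and 0.499. The value for Jun was -0.11, with a 95% interval of -0.30 to 0.08. Limma called 0 of the 4 genes against 0.128% of all genes, and 3 of the 4 were lower in diestrus at an unadjusted p under 0.05, against 5.86% of all genes. Fosb alone did not overlap, against 1.92% of all genes in that direction. edgeR called 0 of the 4 and DESeq2 called Fosb (adjusted p = 0.0235). With the replicate number as a block in the fit, limma called Fosb as well (adjusted p = 0.0466). Without diestrus replicate 2, the diestrus library with the highest Fos, Fosb and Junb, limma called Fosb with an adjusted p of 0.0438, and over the 21 alternatives its adjusted p ran from 0.0235 to 0.477. Without diestrus replicate 5, the library with the lowest Fos, Fosb and Junb of that group, the log2 fold change was -0.26 for Junb, -0.44 for Fos and -0.69 for Fosb, and none of these was called.

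Proestrus and diestrus were compared to ask whether the genes varied with the cycle. The log2 fold change of proestrus vs diestrus was -0.20 for Fos (95% interval -0.72 to 0.33), -0.27 for Fosb (-0.73 to 0.19), -0.24 for Junb (-0.83 to 0.35) and 0.03 for Jun (-0.18 to 0.23). Limma called 0 of the 4 genes, where it called 2.53% of all genes, and 0 of the 4 had an unadjusted p under 0.05, against 26.7% of all genes. edgeR and DESeq2 also called 0 of the 4. Limma called Junb as lower in proestrus (adjusted p = 0.0496) once diestrus replicate 5, its lowest library, was left out, whereas its log2 fold change was -0.01 without diestrus replicate 2, and its adjusted p over the 21 alternatives ran from 0.0496 to 0.982. The intervals of all 4 genes include decreases and increases. Leaving out 1 library moved the log2 fold change of Fos to between -0.38 (without proestrus replicate 1) and 0.12 (without proestrus replicate 3), and it was 0.0016 without diestrus replicate 2. That of Fosb moved to between -0.43 and -0.03, without the same 2 proestrus replicates, and was -0.08 without diestrus replicate 2. The means of Fos, Fosb and Junb were ordered males, diestrus, proestrus, of which the neighbours diestrus and proestrus did not differ beyond their spread.

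**Figure D2:**
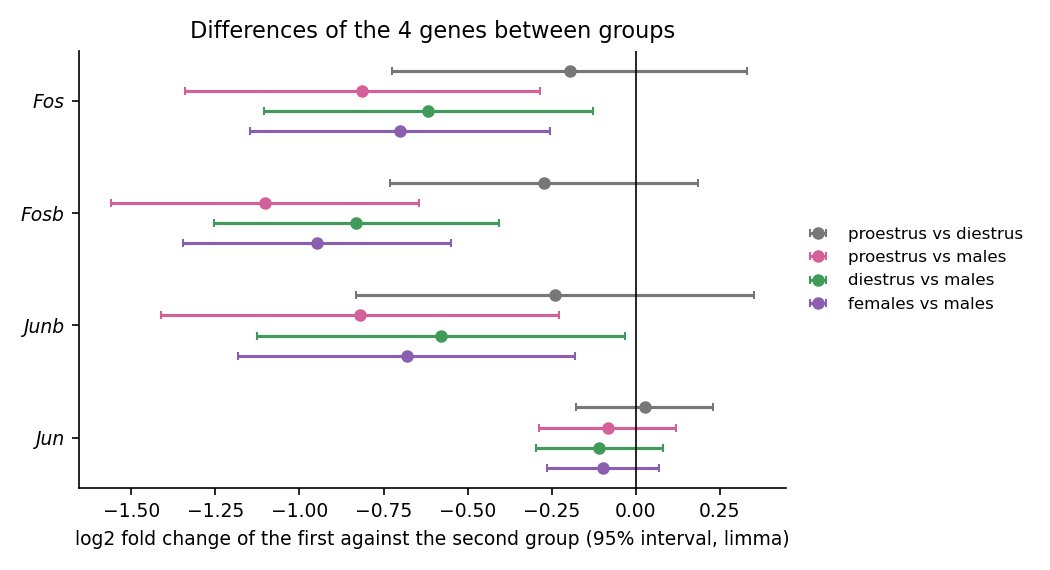
Log2 fold changes of Fos, Fosb, Junb and Jun from limma for 4 comparisons, each of the first named group against the second, with 95% intervals that are not adjusted for the number of genes. Fosb lies farthest below 0 in the 3 comparisons with males (-0.95 for all females), and the intervals of Jun and of proestrus vs diestrus include 0.

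The spread between animals of 1 group differed among the 4 genes. After removal of the group means, the SD on the log2 scale was 0.46 for Junb, 0.41 for Fos, 0.35 for Fosb and 0.12 for Jun. Among 11731 genes that averaged 50 normalized counts or more, 97.7%, 96.1% and 93.0% had a smaller SD than Junb, Fos and Fosb, and 32.7% had a smaller SD than Jun. The median SD of these genes was 0.16. The coefficient of variation within males was 11.3% for Fos, 8.68% for Fosb and 9.74% for Junb. In diestrus it was 33.0%, 31.8% and 41.9% for the same genes, and in proestrus it was 33.3%, 27.0% and 21.1%. The males were thus closer to each other than the females of either stage were, a difference that was not tested.

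The 4 genes were next compared over the 11 libraries to ask how far they varied together. On the log2 scale, Fos and Fosb had a Pearson r of 0.97 (permutation p = 2e-05, the smallest that the resamples can give, adjusted p = 0.00012) and a Spearman rho of 0.94 (permutation p = 8e-05, adjusted p = 0.00048). The r was 0.98 within the 7 females, 0.98 after each value was centred on its group mean, and 0.97 without proestrus replicate 3 and diestrus replicate 5, the 2 libraries farthest from the median of Fos. Among the other 15606 genes, Fosb had the highest r with Fos, and Fos the highest r with Fosb.

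Junb followed both Fos genes less closely. Its r was 0.88 with Fos (rho = 0.81, permutation p = 0.00116 and 0.00362, adjusted p = 0.00232 and 0.00724) and 0.87 with Fosb (rho = 0.83, permutation p = 0.000900 and 0.00266, adjusted p = 0.00232 and 0.00724). Centred on the group means, both were 0.78. Without proestrus replicate 3 and diestrus replicate 5, r was 0.76 with Fos and 0.82 with Fosb. The libraries farthest from the median of Fosb were male replicates 2 and 4, without which r of Fosb and Junb was 0.86. Junb took place 12 among all genes ordered by r with Fos, and place 22 for Fosb.

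Jun varied over a narrow range, and its relations were weaker. Its r was 0.68 with Fos (rho = 0.67, permutation p = 0.0226 and 0.0280, adjusted p = 0.0339 and 0.0336), 0.62 with Fosb (rho = 0.75, permutation p = 0.0435 and 0.00952, adjusted p = 0.0522 and 0.0143) and 0.58 with Junb (rho = 0.62, permutation p = 0.0624 and 0.0482, adjusted p = 0.0624 and 0.0482). Without proestrus replicate 3 and diestrus replicate 5, r was 0.20 with Fos, 0.21 with Fosb and 0.04 with Junb, so that r depended on those libraries. They were the 2 lowest libraries for each of the 4 genes, and leaving them out also narrowed the range. Whether the relations of Jun rest on them alone cannot be told from this. Centred on the group means over all 11 libraries, r was 0.65 with Fos, 0.62 with Fosb and 0.50 with Junb, and within the 7 females it was 0.62, 0.55 and 0.45. Without male replicates 2 and 4, r with Fosb was 0.55. For the pairs of Fosb with Junb and Jun, leaving out the former 2 libraries was chosen after the data were seen. The adjusted values cover the 6 pairs of genes, and the points share the library and its size factor.

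**Figure D3:**
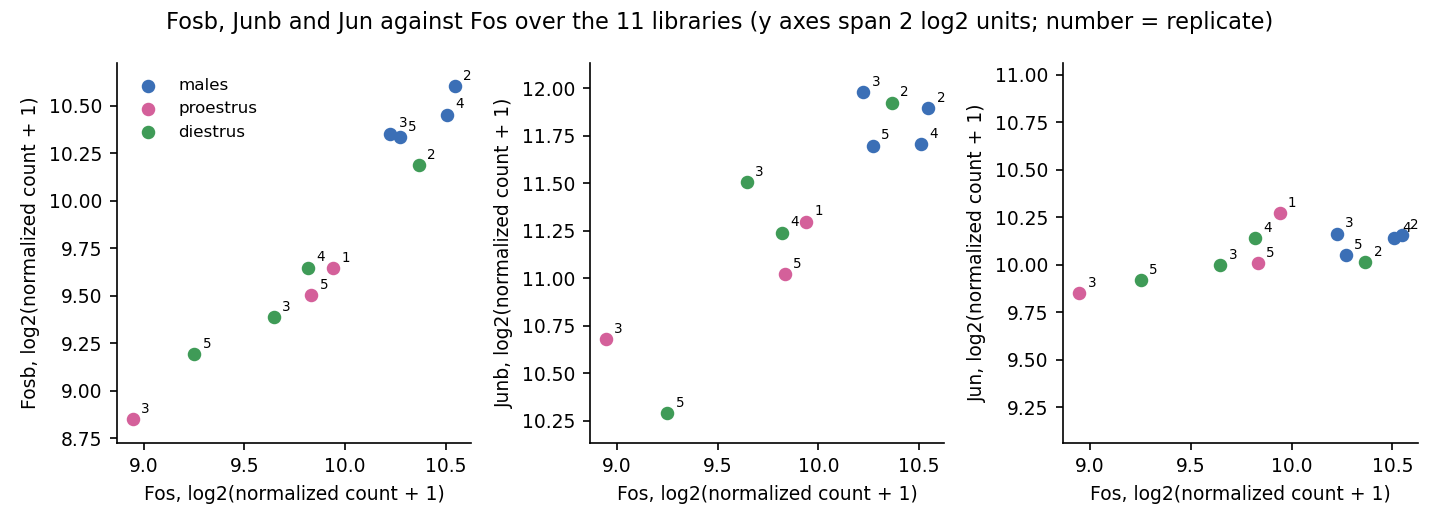
Log2(normalized count + 1) of Fosb, Junb and Jun against that of Fos, with 1 point per library (11 libraries, coloured by group, numbered by replicate) and vertical axes of equal span. Fosb follows Fos closely (r = 0.97), Junb less so (r = 0.88), and Jun spans a small part of the axis (r = 0.68). Diestrus replicate 2 lies within the male range for Fos and Junb and below the males for Fosb and Jun.

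Ratios between the genes within a library do not depend on its size factor, and were examined after the values had been seen. The log2 ratio of Fos to Fosb was -0.05 ± 0.08 for the males (SD, n = 4), against 0.24 ± 0.12 for proestrus (SD, n = 3) and 0.17 ± 0.08 for diestrus (SD, n = 4). It was higher in 7 of 7 females than in any male, although the lowest female (0.0567) and the highest male (0.0538) nearly met. The difference of 0.25 between females and males had an exact permutation p of 0.00606 (two-sided), the smallest that the 330 splits allow, and 0.0727 after adjustment over 24 tests of 6 ratios. Without each library in turn the difference stayed between 0.22 and 0.28.

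The log2 ratio of Fosb to Jun was 0.31 ± 0.11 for the males (SD, n = 4), against -0.71 ± 0.26 for proestrus (SD, n = 3) and -0.41 ± 0.40 for diestrus (SD, n = 4), with females lower by -0.85 (exact permutation p = 0.00606, adjusted p = 0.0727). For Fos to Jun the difference between females and males was -0.60 (exact permutation p = 0.0182, adjusted p = 0.137), and for Junb to Jun it was -0.58 (exact permutation p = 0.0545, adjusted p = 0.137). None of the 24 tests had an adjusted p under 0.05, which the 12 tests of proestrus against diestrus or males could not reach, since their 35 splits allow no exact p under 0.0571. The ratios compare groups and not the abundance of 2 transcripts, since transcript length was not taken into account.

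**Figure D4:**
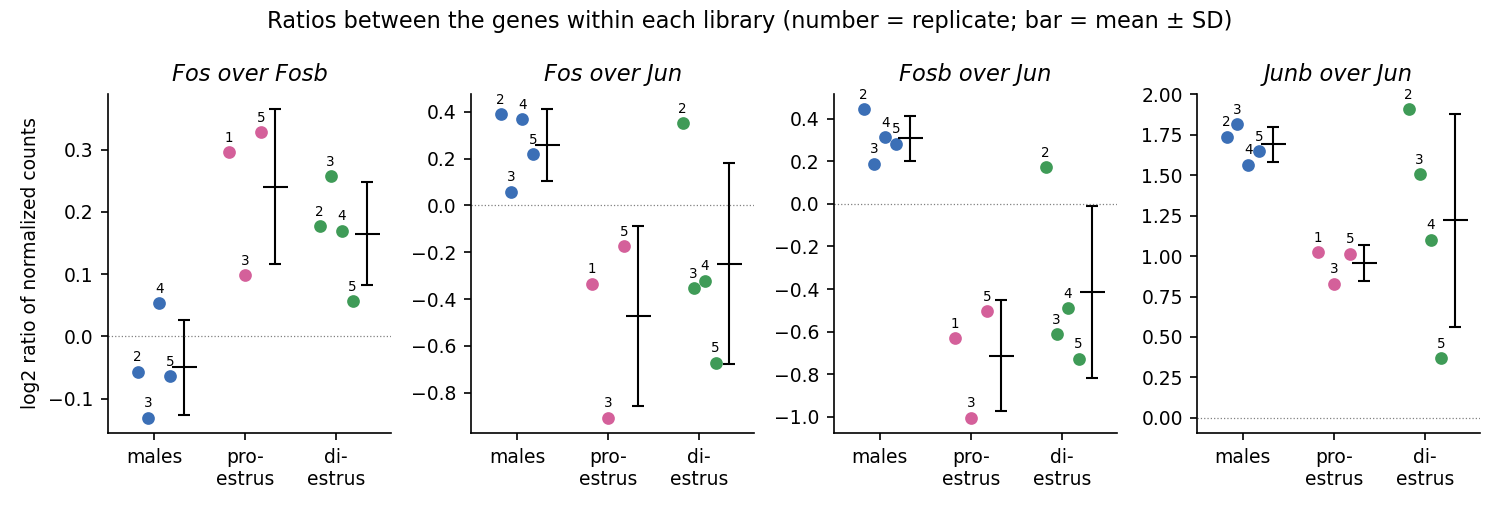
Log2 ratios of normalized counts within each library, for Fos over Fosb and for Fos, Fosb and Junb over Jun, by group; points are libraries numbered by replicate, bars are the mean ± SD, and the dotted line marks equal counts. Fos over Fosb averages -0.05 in males and 0.24 and 0.17 in proestrus and diestrus, and Fosb over Jun is positive in all males and in diestrus replicate 2 and negative in the other females.

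Genes with patterns most like those of the 4 were then sought among those that averaged 50 normalized counts or more. For Fos it was Egr2, an immediate early gene that encodes a zinc finger transcription factor, with an r of 0.94 over the 11 libraries. Egr2 was at 1419 ± 155 normalized counts in males (SD, n = 4), against 676 ± 298 for proestrus (SD, n = 3) and 780 ± 267 for diestrus (SD, n = 4). All female libraries (442 to 1110) were below the lowest male value of 1246, as held for 0.737% of all genes. The log2 fold change of Egr2 in females vs males was -1.02 ± 0.23 (SE, adjusted p = 0.177 in limma). Since Egr2 was picked here by its r with Fos over the same libraries, its group difference is no separate support for that of Fos. The genes most like Fosb, Junb and Jun are not paired with a symbol here. They were ENSRNOG00000007830 for Fosb (r = 0.96), ENSRNOG00000047811 for Junb (r = 0.98) and ENSRNOG00000018646 for Jun (r = 0.89). After centring on the group means, r was 0.95, 0.97 and 0.88 for these 3 genes and 0.88 for Egr2 with Fos.

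Other genes that neuronal activity induces were read from a list of 28, of which 9 could be matched to an identifier. Limma called 0 of the 9 in any comparison, where it called 0.0833% to 2.53% of all genes, so that 0 calls in so short a list say little. The log2 fold change in females vs males was negative for 9 of 9, with a median of -0.30, against a median of 0.01 over all genes tested. At an unadjusted p under 0.05, 5 of the 9 were lower in females, against 2.77% of all genes. Sik1, a kinase that restrains CREB-dependent transcription, was at 315 ± 49.1 normalized counts in males (SD, n = 4) and 184 ± 63.9 in females (SD, n = 7), a log2 fold change of -0.83 ± 0.21 (SE, adjusted p = 0.322 in limma). Adamts1, a secreted protease of the extracellular matrix, had a log2 fold change of -0.94 ± 0.19 (SE, adjusted p = 0.0993 in limma).

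Nptx2, a secreted pentraxin of excitatory synapses, and Ptgs2, the inducible prostaglandin synthase, had smaller values in females vs males of -0.27 and -0.29 on the log2 scale. Ptgs2 did not share the order of the Fos genes, with 175 ± 8.93 normalized counts in proestrus (SD, n = 3), against 99.8 ± 37.1 for diestrus (SD, n = 4) and 165 ± 76.3 for males (SD, n = 4). Its log2 fold change in proestrus vs diestrus was 0.88 ± 0.34 (SE, adjusted p = 0.139 in limma). By comparison, negative values were found for 8 of the 9 genes in proestrus vs males (median -0.43), for 7 of 9 in diestrus vs males (median -0.37) and for 6 of 9 in proestrus vs diestrus (median -0.14). The medians over all genes in these comparisons were 0.0052, 0.0096 and -0.014.

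**Figure D5:**
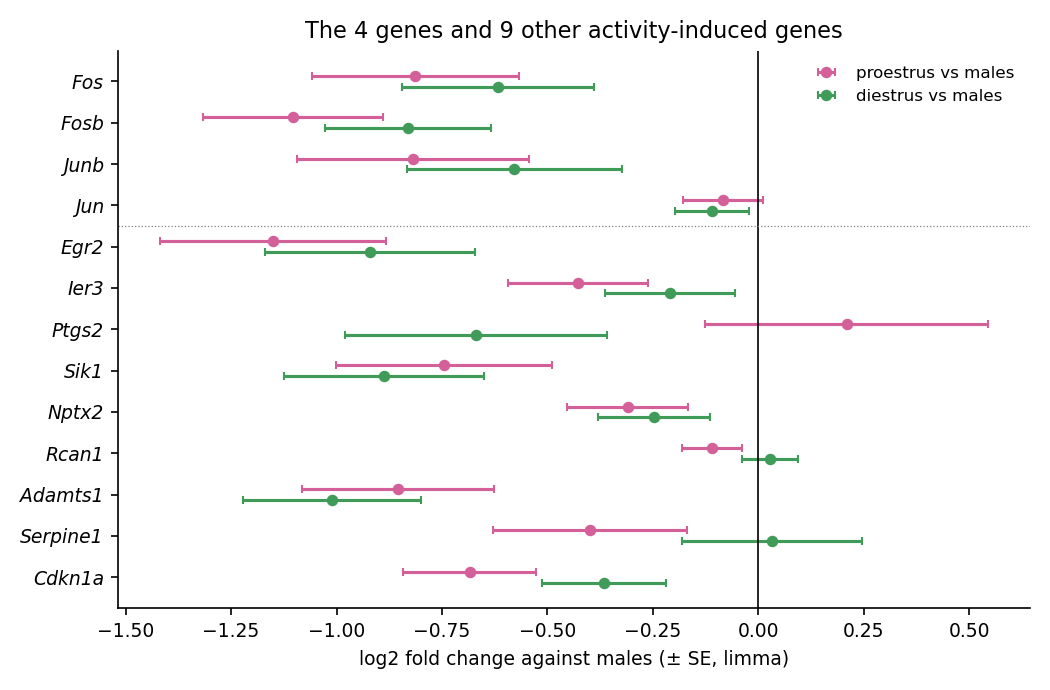
Log2 fold changes (± SE, limma) of proestrus and of diestrus vs males for Fos, Fosb, Junb and Jun, above the dotted line, and for the 9 other activity-induced genes that could be matched, below it. Egr2, Sik1 and Adamts1 lie near Fos and Fosb in both stages, Rcan1 lies near 0, and Ptgs2 is positive in proestrus and negative in diestrus.

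Of a list of 16 genes of the AP-1 family, 6 could be matched, which adds Atf2 and Mafk to the 4. Atf2, a partner of Jun proteins at cAMP response elements, was at 389 ± 56.1 normalized counts in proestrus (SD, n = 3), against 151 ± 43.4 for diestrus (SD, n = 4) and 237 ± 130 for males (SD, n = 4), with a log2 fold change of 1.40 ± 0.35 in proestrus vs diestrus (SE, adjusted p = 0.0532 in limma). Mafk, a small Maf protein, had a log2 fold change of -0.23 in females vs males. Limma called 0 of the 6 genes in any comparison, against 0.0833% to 2.53% of all genes.

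Marker lists of other cell types were read beside these results. Limma called 0 matched markers of cortical neurons, interneurons, striatal neurons, astrocytes, oligodendrocytes and their precursors, microglia, endothelium, mural cells and meningeal fibroblasts in any comparison. Among all genes it called 0.0833% to 2.53% in these comparisons. Of 3 erythroid genes 1 was matched, Alas2, which encodes the first enzyme of heme synthesis in red cell precursors. It was at 48.0 to 106 normalized counts in males, 11.1 to 23.8 in proestrus and 15.6 to 28.4 in diestrus, and limma called it lower in females (log2 fold change -1.85 ± 0.26, SE, adjusted p = 0.0120). The summed level of 3 of 6 mural markers was 1586 to 2193 in males, 1378 to 1422 in proestrus and 1511 to 1702 in diestrus. This sum was carried by Myh11 and Mylk, and the third marker, Pln, had its lowest mean in males (17.4 normalized counts, against 22.9 in proestrus and 29.7 in diestrus). For 2 of 5 oligodendrocyte markers the summed level was 10097 to 12803 in males, 13433 to 16468 in proestrus and 14022 to 17998 in diestrus. The part of blood, mural and oligodendrocyte content in the values of Fos, Fosb and Junb was not tested.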

How the data were processed

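Per the labels, mPFC punches of rats were sequenced as poly(A)-selected, unstranded libraries. The authors trimmed reads with Trimmomatic 0.32, aligned them with TopHat2 2.0.11 and Bowtie2 2.1.0 to Rnor_5.0, counted reads per gene with HTSeq 0.6.1p1, removed genes under a minimum set from spike-ins and left out 1 proestrus library, which was not analysed here (versions from the submitters' processing notes). The deposited tables hold a normalized signal per gene and library, described as DESeq2- and edgeR-normalized. The first, with 15607 genes, gave all values. In it 100% of values were whole multiples of 1 step per library (tolerance 0.01), so whole reads were recovered. The second served to check these reads.

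The main test was limma 3.58.1 in R 4.3.3 with a trended prior variance on log2(value + 1) over all 15607 genes, with Benjamini-Hochberg adjustment at a false discovery rate of 0.05. The 3 groups shared 1 fit without covariates, and females vs males had sex as its sole term. These fold changes understate the change of genes with low counts. The scripts were tested on simulated data. Correlations were tested with 100000 resamples and ratios with exact permutation tests, both two-sided, in scipy 1.17.1. Alternatives were edgeR 4.0.16 and DESeq2 1.42.0 on the recovered reads, other pseudocounts, filters and scalings, a replicate block, a 2-group fit and leaving out each library. The study's methods call the libraries of a group biological replicates. Animals were housed in pairs, and the labels do not say which libraries share a cage.

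The 4 genes, the lists and the comparisons were chosen with earlier results of these data known. The named genes were the 4, for each the gene outside them with the highest r, and listed genes that passed the false discovery rate, with Egr2, Ptgs2, Sik1 and Nptx2 always named. Adamts1, Rcan1, Atf2, Mafk, Myh11, Mylk and Pln were named after their values were seen. Symbols of listed genes came from a supplementary table of the study, held here for 1238 genes. The 47357 RefSeq genes used here carried 0 Ensembl identifiers. A list of factors upstream of AP-1 is not reported here.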

Additional observations from a re-analysis of the deposited data

How the results depend on the processing

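Of 336 log2 fold changes of the 4 genes under 21 alternatives, 320 kept their direction and their side of the threshold, 10 passed the false discovery rate where the main fit did not, and 6 changed sign. The count of the 4 genes called was 1 instead of 0 with DESeq2 in proestrus vs males, diestrus vs males and females vs males, and 2 in proestrus vs males with the compared groups alone. Without 1 library it was 0 to 1 in each of the 4 comparisons. It was 1 without diestrus replicate 2 in the comparisons with males (Fosb) and without diestrus replicate 5 in proestrus vs diestrus (Junb). Signs changed for small values. In proestrus vs diestrus, leaving out 1 library gave -0.38 to 0.12 for Fos, which was positive without diestrus replicate 2 (0.0016) and without proestrus replicate 3 (0.12). It gave -0.09 to 0.12 for Jun, which was negative without diestrus replicate 5 (-0.0067) and without proestrus replicate 1 (-0.0891). In proestrus vs males, it gave -0.20 to 0.01 for Jun, which was positive without proestrus replicate 3 (0.0130). The causes of these changes were not tested.

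Whether equal replicate numbers mark paired libraries is not stated in the labels and was not tested. By the study's methods, males were killed on the same day as females. The correlations of the deviations of same-numbered libraries were 0.01 to 0.59, with 6 of 8 over 0.1. Between diestrus and males they were 0.05, 0.59, 0.36 and 0.40 for replicates 2, 3, 4 and 5. Diestrus and male libraries of unequal number had correlations of -0.67 to 0.58. Of the 8 diestrus and male libraries, 4 correlated best with their own number. With the replicate number as a block, Jun had -0.0497 in proestrus vs diestrus, and 1 of the 4 genes (Fosb) was called in diestrus vs males. The block changed no other call. With 3 or 4 animals per group, the spread between libraries of a group exceeded the counting error for Fos, Fosb and Junb. For Jun in males the 2 were close, with a coefficient of variation of 3.57% and a counting error of 2.69% to 3.24%. The parts of animal, dissection and library preparation in this spread were not tested.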
